A study of Homo sapiens with 6 samples.

Results

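The genes described here are the expressed ZNF genes of HCC827 cells, that is, the genes that carry the systematic name ZNF and a number, most of which encode proteins of the C2H2 zinc-finger class. They were taken as the protein-coding genes of that name whose mean was at least 5 TPM (a share of each library's transcripts, corrected for transcript length) over the 6 libraries. This gave 257 of the 512 protein-coding ZNF genes in a table of 60504 genes. A further 187 ZNF genes had a mean of 1 to under 5 TPM and 68 lay below 1 TPM. They were thus selected on the mean TPM of both cultures together and not on the difference between them. A gene under 5 TPM in 1 culture could still pass through its values in the other. Some genes called higher below passed through 3D, among them ZNF440 (mean of 11.64 TPM in 3D and 3.84 TPM in 2D) and ZNF124 (10.75 and 3.70 TPM). ZNF587, ZNF461 and ZNF614 also had 2D means under 5 TPM. The members just inside the limit were ZNF487 at 5.015 TPM, ZNF669 at 5.02 TPM and ZNF607 at 5.03 TPM, and the genes just outside were ZNF438 at 4.97 TPM, ZNF682 at 4.96 TPM and ZNF845 at 4.89 TPM.

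HCC827 is a line of human lung adenocarcinoma cells that carries a mutant EGFR. In the 3D group (3 libraries) the cells had been seeded at 50000 per droplet of Matrigel (a gel of basement membrane proteins, here with reduced growth factors), and kept as tumoroids for 12 to 16 days or until confluent. In the 2D group (3 libraries) 1000000 cells were passaged into an uncoated flask and grown as a monolayer for 4 to 6 days. Both groups were kept in RPMI medium with fetal bovine serum, penicillin and streptomycin, and the labels name no engineered allele and no drug treatment beside a Rock inhibitor used, with Dispase, when tumoroids were passaged. The comparison asks how expression differs between these cultures of 1 line; culture time, cells seeded and contact with the gel differ together with geometry, and their effects cannot be told apart. Whether the libraries of a group stem from separate cultures is not stated in the labels; p-values here therefore describe only the spread among these samples, and that spread may be technical.

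A C2H2 zinc finger is a short fold in which a pair of cysteines and a pair of histidines hold a zinc ion, and a row of such fingers, joined by a conserved linker, reads DNA base by base. Many ZNF proteins also carry a KRAB domain, which recruits the corepressor TRIM28 and, through it, the histone methyltransferase SETDB1 and heterochromatin proteins. KRAB zinc-finger genes lie in clusters, many of them on chromosome 19, and many of their proteins bind and silence retroelements. Others of the name have no KRAB domain and work in splicing, ribosome quality control or chromatin complexes.

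A search of the translated GENCODE 29 transcripts for C, 2 to 4 residues, C, 12 residues, H, 3 to 5 residues, H found at least 1 finger in 251 of the 257 members, with a median of 10 and at most 33 per protein, and the linker (T, G, E, K, P) in 175. The other 6, ZNF185, ZNF330, ZNF487, ZNF720, ZNF839 and ZNF862, had no match and are members by name alone. A KRAB-type pattern (D, V or L, 3 residues, F or L, 3 residues, E, W in the first 250 residues) was found in 127. A missing match says only that these letters are absent from the transcript searched. For 7 genes called higher in 3D below, the first finger with 2 residues between the cysteines and 3 between the histidines that is followed directly by a linker is printed, to show what the coding sequence of a finger looks like, 5′ to 3′, with the codons of the 2 cysteines and 2 histidines in capitals and the linker as the last 15 bases.
ZNF267: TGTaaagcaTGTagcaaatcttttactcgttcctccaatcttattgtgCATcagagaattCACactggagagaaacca
ZNF124: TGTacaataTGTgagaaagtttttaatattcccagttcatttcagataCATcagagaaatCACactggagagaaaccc
ZNF440: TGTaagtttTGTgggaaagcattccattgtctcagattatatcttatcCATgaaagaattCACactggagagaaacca
ZNF559: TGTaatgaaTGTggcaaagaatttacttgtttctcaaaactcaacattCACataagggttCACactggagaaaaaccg
ZNF300: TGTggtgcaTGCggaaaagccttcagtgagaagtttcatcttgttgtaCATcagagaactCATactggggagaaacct
ZNF165: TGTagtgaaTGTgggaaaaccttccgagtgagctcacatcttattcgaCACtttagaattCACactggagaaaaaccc
ZNF217: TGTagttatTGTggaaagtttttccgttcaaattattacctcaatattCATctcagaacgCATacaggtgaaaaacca
Over these 78 bases the 21 pairs of fingers were 53.8% to 71.8% identical, ZNF124 and ZNF440 being the closest pair. The capitals fall at the same places because fingers of 1 spacing were chosen.

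Expressed ZNF genes were more often higher than lower in 3D culture. Of the 257, 67 were called higher and 0 were called lower (limma on log2(TPM + 1), Benjamini-Hochberg adjusted p under 0.05 over 15042 tested genes). That is 26.1% of the members, beside 10.2% called higher and 2.12% called lower over all tested genes, and 10.5% and 2.44% over the 9705 other nuclear protein-coding genes at a mean of 5 TPM or more. An unadjusted p under 0.05 was reached by 115 members, 2 of which, ZNF287 and ZNF593, were lower in 3D. The share of all tested genes at that unadjusted threshold was not counted, so the 115 are not set against a background. The changes were moderate. The median log2 fold change of the members was 0.37 (range -0.78 to 2.09), against 0.12 for all tested genes and 0.10 for the other protein-coding genes, and 15 of the 67 passed 2-fold on this scale, on which low genes appear to change less than they do in TPM. A positive fold change was seen in 227 members (88.3%), beside 60.8% of all tested genes and 59.4% of the other protein-coding genes. All 3D libraries lay above all 2D libraries in 139 members (54.1%, beside 27.3% of all tested genes and 27.9% of the other protein-coding genes) and below them in 2 members, ZNF287 and ZNF580 (9.4% of all tested genes and 10.6% of the other protein-coding genes). Genes called higher are likely to be separated in this way because of the call itself. Where separation is given for called genes below, it only describes their values.

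**Figure D1:**
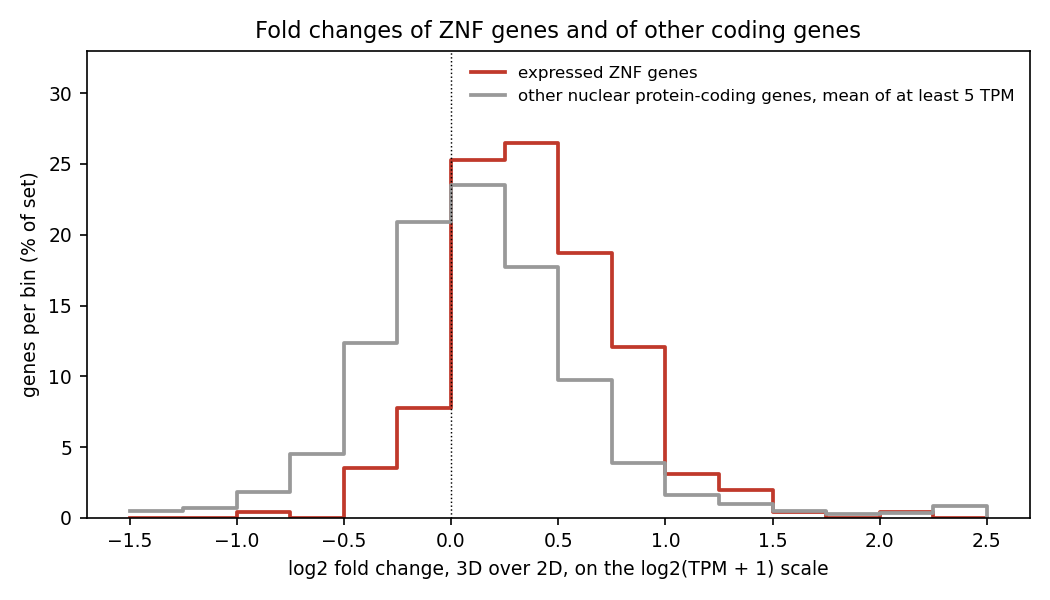
Share of genes (%, vertical axis) in bins of the log2 fold change of 3D over 2D (horizontal axis, log2(TPM + 1) scale) for the 257 expressed ZNF genes (red) and the 9705 other nuclear protein-coding genes at a mean of 5 TPM or more (grey). Bins are 0.25 wide, and 77 other genes beyond the ends at -1.5 and 2.5 are counted in the end bins. The ZNF genes are shifted to the right, with a median of 0.37 against 0.10.

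Summed over the 257 genes, ZNF transcripts took 4106, 4447 and 4031 TPM in the 3D libraries, against 3257, 3161 and 3109 TPM in the 2D libraries. The groups did not overlap. The mean was 4195 ± 222 TPM in 3D and 3175 ± 75.3 TPM in 2D (SD, n = 3 each), a ratio of 1.321, so that the whole set made up 0.403% to 0.445% of the 3D transcripts and 0.311% to 0.326% of the 2D transcripts. The shift was present in each 3D library: the median member lay 0.32, 0.43 and 0.34 above its own 2D mean on the log2 scale. In 3D replicate 2, 135 members had their highest value of the group, against 51 in replicate 1 and 71 in replicate 3. In bulk RNA, a larger share of cells that express a gene and more RNA per cell cannot be told apart.

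The size of the count depended on single libraries and on scaling, while the median of the members stayed above that of the other genes in all 19 alternative settings. Without 3D replicate 1, 5 members were called higher (1.95% of members, beside 2.14% of the other protein-coding genes), so that the excess of calls was absent, with a member median of 0.38 against 0.11 for the other genes. Without 3D replicate 2 the calls fell to 10 of 257 (3.89%, beside 2.41%), and without 2D replicate 2 to 15 of 257 (5.84%, beside 2.87%). Without 2D replicate 1 the share was 11.3%, beside 5.22%. The libraries numbered 3 stood apart from the others of their group: 3D replicate 3 had a mitochondrial share of 12.3% of TPM, beside 19.4% in each other 3D library, and a score of -22.65 on the first principal component, beside -42.88 and -48.63. On the second component 2D replicate 3 scored -42.05, beside 25.6 and 22.45 in the other 2D libraries. Without both, 30.7% of members were called higher, beside 16.0% of the other protein-coding genes, and 65 of the 67 calls remained. ZNF124, ZNF217, ZNF267, ZNF548 and ZNF608 kept the call in every setting tried. On other scales the median of all tested genes moved from 0.12 to -0.01 (median-ratio scaling) and -0.04 (quantile normalization). The member median was then 0.23 and 0.17, with 43 and 33 members called higher and 0 lower. These were 16.7% and 12.8% of members, beside 6.14% and 6.06% of the other protein-coding genes.

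The largest increase was that of ZNF165, which encodes a SCAN-domain zinc-finger protein known as a cancer-testis antigen. ZNF165 (ENSG00000197279, chr6:28080975-28089563, plus strand) had 27.63, 34.71 and 17.71 TPM in the 3D libraries, against 3.64, 4.02 and 9.67 TPM in the 2D libraries. The lowest 3D library stood above the highest 2D library, which was replicate 3. Its log2 fold change was 2.09 (limma with an SE of 0.36, adjusted p = 0.0146), and the call was lost without the filter on low TPM, on leaving out 3D replicate 1, 3D replicate 2 or 2D replicate 2, with an adjusted p of up to 0.0745. An antisense gene overlaps its exons, and whether the counting used strand is not given in the sources used here.

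ZNF267, a KRAB zinc-finger gene with 14 finger matches (ENSG00000185947, chr16:31873758-31917357, plus strand), had 35.53, 24.36 and 21.36 TPM in the 3D libraries, against 7.11, 7.31 and 9.34 TPM in the 2D libraries. Every 3D library was more than 2-fold above every 2D library. The log2 fold change was 1.63 (limma with an SE of 0.21, adjusted p = 0.0053), and it was the largest among the 5 calls that held in every setting. ZNF292 (ENSG00000188994, chr6:87152833-87264196, plus strand), a large DNA-binding protein whose loss-of-function variants cause a neurodevelopmental disorder, had 15.18, 26.23 and 12.32 TPM in 3D, against 4.89, 5.53 and 6.69 TPM in 2D. The groups did not overlap, although 3D replicate 2 stood well above the other 3D libraries. The log2 fold change was 1.44 (limma with an SE of 0.27, adjusted p = 0.0172), and the call was lost without the filter and when 3D replicate 1, 2D replicate 1 or 2D replicate 2 was left out (adjusted p up to 0.073).

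Several further KRAB zinc-finger genes were among the 10 largest increases. ZNF440 (chr19:11814284-11835201, plus strand) had 13.60, 12.73 and 8.59 TPM in 3D and 3.19, 3.85 and 4.49 TPM in 2D, with a log2 fold change of 1.37 (limma with an SE of 0.21, adjusted p = 0.00959). ZNF124 (chr1:247121975-247172016, minus strand) had 13.17, 10.31 and 8.78 TPM in 3D and 3.45, 3.57 and 4.08 TPM in 2D, with a log2 fold change of 1.31 (limma with an SE of 0.18, adjusted p = 0.00692). In both genes the 2D libraries lay close together and 3D replicate 1 was the highest. ZNF559 (chr19:9323772-9351162, plus strand) had 27.33, 28.57 and 22.58 TPM in 3D and 7.80, 11.47 and 11.95 TPM in 2D, and ZNF548 (chr19:57389850-57402992, plus strand) had 14.77, 18.36 and 12.91 TPM in 3D and 6.65, 5.08 and 5.82 TPM in 2D. Their log2 fold changes were 1.27 and 1.25 (limma, adjusted p = 0.00899 and 0.00718). Both are less certain than the genes before them, since annotated genes overlap them on the same strand and 12.6% of the 75-base windows of ZNF559 and 22.3% of those of ZNF548 occur in transcripts of another gene. ZNF300 (chr5:150894392-150904983, minus strand) had 13.02, 14.76 and 11.64 TPM in 3D and 4.67, 5.31 and 6.73 TPM in 2D (limma, log2 fold change 1.11 with an SE of 0.17, adjusted p = 0.0103). In each of these 5 genes every 3D library exceeded every 2D library. The calls of ZNF440, ZNF559 and ZNF300 were lost without 3D replicate 1 or 3D replicate 2, with adjusted p of up to 0.0591, 0.0588 and 0.0608.

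ZNF608 (chr5:124636913-124748807, minus strand), a gene with 1 finger match and no KRAB-type pattern, had the smallest adjusted p of the 10. It had 29.80, 28.13 and 26.49 TPM in 3D, against 10.74, 10.51 and 13.71 TPM in 2D, and the log2 fold change was 1.21 (limma with an SE of 0.15, adjusted p = 0.00423). Both groups were narrow and well apart. ZNF326 completes the 10 largest increases and is described with the RNA-binding members.

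**Figure D2:**
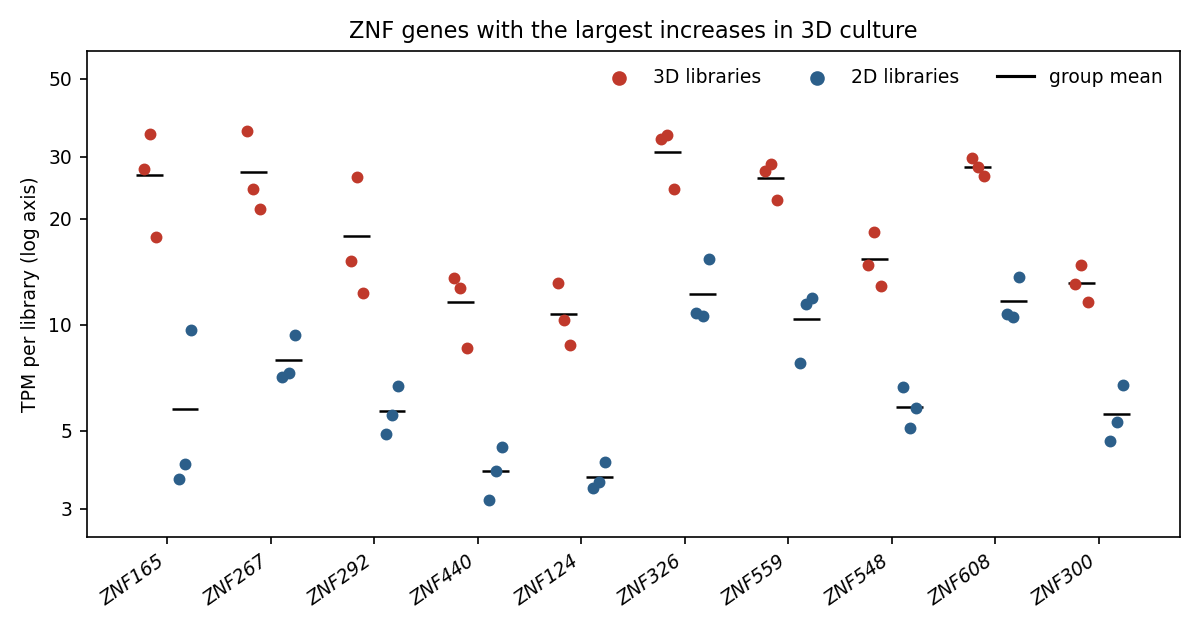
TPM per library (vertical log axis) for the 10 ZNF genes with the largest called increases, in order of their fold change; red points are the 3 libraries of 3D culture, blue points the 3 libraries of 2D culture, and bars are group means. In all 10 genes the 3D points lie above the 2D points, which their choice as the largest called increases favours. ZNF165 has the widest spread in 2D, at 3.64 to 9.67 TPM.

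Of 10 listed members with roles in RNA, ribosomes and translation, all expressed at 5 TPM or more, 2 were called higher (beside 26.1% of all members and 10.2% of all tested genes) and 0 lower, and the median log2 fold change was 0.21, beside 0.37 for all members and 0.12 for all tested genes. ZNF326 (chr1:89995112-90035531, plus strand) is a subunit of the DBIRD complex, which links RNA polymerase II elongation to splicing. It had 33.80, 34.68 and 24.32 TPM in 3D, against 10.83, 10.58 and 15.36 TPM in 2D, with no overlap (limma, log2 fold change 1.27 with an SE of 0.20, adjusted p = 0.0108). ZNF830, found with the splicing machinery, had 17.90, 15.84 and 16.05 TPM in 3D, against 9.38, 8.67 and 7.48 TPM in 2D, again with no overlap (limma, log2 fold change 0.89 with an SE of 0.14, adjusted p = 0.011). Both calls were lost without 3D replicate 1 (adjusted p up to 0.0663 and 0.0684), and that of ZNF326 also without 3D replicate 2 or 2D replicate 2.

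The other 8 genes of that list did not pass the test. ZNF598, the ubiquitin ligase that marks collided ribosomes, averaged 38.6 ± 11.1 TPM in 3D and 32.3 ± 5.63 TPM in 2D (SD, n = 3 each; limma adjusted p = 0.507). ZNF622, a factor of large ribosomal subunit maturation, averaged 29.2 ± 2.14 TPM in 3D and 25.7 ± 2.96 TPM in 2D (limma adjusted p = 0.4). ZNF593, whose yeast counterpart also acts in large subunit export, averaged 8.74 ± 1.64 TPM in 3D and 12.6 ± 2.06 TPM in 2D, with a log2 fold change of -0.49 (limma adjusted p = 0.124). The values of ZNF593 in 3D replicate 3, 10.40 TPM, and 2D replicate 3, 10.35 TPM, were nearly equal.

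Among 10 members of chromatin and silencing complexes, 4 were called higher (40.0%, beside 26.1% of all members and 10.2% of all tested genes) and 0 lower, with a median log2 fold change of 0.47. The fold change was positive in all 10, beside 88.3% of all members and 60.8% of all tested genes. ZNF217 (chr20:53567065-53609907, minus strand), an oncogene product that works with the CoREST and CtBP corepressors, had 48.48, 64.46 and 54.90 TPM in 3D, against 29.56, 23.18 and 28.54 TPM in 2D, with no overlap. Its log2 fold change was 1.02 (limma with an SE of 0.16, adjusted p = 0.0104) and the call held in every setting, at an adjusted p of up to 0.0498. Annotated genes on the opposite strand overlap the exons of ZNF217. ZNF274, a KRAB protein that binds the ends of other zinc-finger genes and recruits TRIM28 and SETDB1 there, had 33.20, 38.90 and 29.60 TPM in 3D, against 20.29, 18.64 and 16.47 TPM in 2D (limma, log2 fold change 0.84 with an SE of 0.15, adjusted p = 0.016). ZNF644, a partner of the histone methyltransferases G9a and GLP, averaged 47.3 ± 4.05 TPM in 3D and 27.1 ± 3.03 TPM in 2D (SD, n = 3 each; limma, log2 fold change 0.78, adjusted p = 0.0149). ZNF451, a SUMO ligase, averaged 20.8 ± 1.74 TPM in 3D and 12.4 ± 1.43 TPM in 2D (SD, n = 3 each; limma, log2 fold change 0.70, adjusted p = 0.0226). In these 4 genes no 3D library overlapped a 2D library. The calls of ZNF274, ZNF644 and ZNF451 were lost without 3D replicate 1 or 2, that of ZNF274 also without 2D replicate 2, that of ZNF644 also when log2 values were corrected for transcript length and GC, and that of ZNF451 in 8 settings in all (adjusted p up to 0.0756, 0.0924 and 0.114).

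Of 13 listed genes for sequence-specific activators or repressors without a KRAB domain, 9 were expressed at 5 TPM or more. With limma, 0 of these 9 were called, beside 10.2% called higher and 2.12% lower of all tested genes. An unadjusted p under 0.05 was reached by 2, beside 115 of all 257 members, and the median log2 fold change was 0.29. So short a list does not tell a share of 0 from the background. ZNF143, an activator bound at many promoters, averaged 17.8 ± 0.737 TPM in 3D and 14.4 ± 1.88 TPM in 2D (SD, n = 3 each; limma adjusted p = 0.196). ZNF395, a gene known to respond to hypoxia, had 31.76, 50.02 and 53.70 TPM in 3D, against 21.60, 18.44 and 43.15 TPM in 2D (limma, log2 fold change 0.75, adjusted p = 0.17). The groups overlapped through 2D replicate 3. Its windows are shared with another gene to 41.4%. Of 8 listed KRAB proteins with known targets, 4 were expressed at 5 TPM or more. With limma, 0 of these 4 were called, beside 26.1% of all members and 10.2% of all tested genes called higher. An unadjusted p under 0.05 was reached by 1 of the 4, beside 115 of all 257 members. All 4 fold changes were positive, with a median log2 fold change of 0.41, and 4 genes are too few to tell a share of 0 from the background. ZNF91, a repressor of SVA retroelements, averaged 17.6 ± 2.59 TPM in 3D and 13.3 ± 1.79 TPM in 2D (SD, n = 3 each, limma adjusted p = 0.165). ZNF350, a repressor that works with BRCA1, averaged 8.66 ± 0.313 TPM in 3D and 6.04 ± 0.252 TPM in 2D (SD, n = 3 each, limma adjusted p = 0.0645).

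The members ranged from a mean of 5.01 to 173.9 TPM with a median of 9.66, and the most abundant did not lead the changes. ZNF706 had 165.01, 180.15 and 173.00 TPM in 3D, against 162.58, 172.10 and 190.34 TPM in 2D, and the groups overlapped (limma, log2 fold change -0.02, adjusted p = 0.938). ZNF207, a spindle and kinetochore protein that binds BUB3, had 117.38, 117.65 and 117.40 TPM in 3D, against 97.22, 98.96 and 103.98 TPM in 2D, which did not overlap but did not pass the test (limma, log2 fold change 0.23, adjusted p = 0.194). ZNF638, which recruits the HUSH silencing complex to unintegrated retroviral DNA, averaged 72.3 ± 17.1 TPM in 3D and 61.8 ± 13.5 TPM in 2D (SD, n = 3 each; limma adjusted p = 0.545).

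Among the 10 most abundant members, 3 were called higher, beside 26.1% of all members and 10.2% of all tested genes. ZNF146, a protein made almost wholly of fingers, had 68.21, 67.15 and 57.67 TPM in 3D, against 34.84, 38.26 and 35.83 TPM in 2D (limma, log2 fold change 0.81 with an SE of 0.13, adjusted p = 0.0104). ZNF664 had 68.48, 78.31 and 55.55 TPM in 3D, against 43.71, 40.34 and 42.28 TPM in 2D (limma, log2 fold change 0.65 with an SE of 0.15, adjusted p = 0.0332). In both the groups were apart, and the other called gene was ZNF217. The call of ZNF146 was lost without 3D replicate 1 or 2 (adjusted p up to 0.0623), and that of ZNF664 in 8 settings, scaling included (up to 0.126). ZNF581, ZNF511, ZNF277 and ZNF358 were not called. ZNF581 averaged 48.2 ± 3.83 TPM in 3D and 62.9 ± 20.5 TPM in 2D, and ZNF511 averaged 42.5 ± 11.8 TPM in 3D and 57.9 ± 8.42 TPM in 2D (SD, n = 3 each; limma adjusted p = 0.394 and 0.179). ZNF277 averaged 39.3 ± 4.45 TPM in 3D and 47.8 ± 18.0 TPM in 2D, and ZNF358 averaged 43.1 ± 0.561 TPM in 3D and 42.2 ± 14.2 TPM in 2D (SD, n = 3 each; limma adjusted p = 0.622 and 0.832). Shared windows (14.4% to 22.5% in ZNF581, ZNF511, ZNF207 and ZNF358) make these levels less certain. In ZNF581, ZNF277 and ZNF358 the 2D libraries spread far more widely than the 3D libraries. The most negative member was ZNF467 at 6.41, 5.47 and 6.54 TPM in 3D, against 18.04, 12.97 and 5.90 TPM in 2D (limma, log2 fold change -0.78, adjusted p = 0.166), named after its values were seen, and 2D replicate 3 lay within its 3D range.

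By level, calls were most frequent at 10 to 50 TPM. Of 132 members at a mean of 5 to 10 TPM, 18.2% were called higher, beside 13.3% of other protein-coding genes at that level. At 10 to 20 TPM the share was 32.5% of 83 members, beside 11.2%, and at 20 to 50 TPM it was 40.0% of 35 members, beside 9.81%. Of the 7 members at 50 TPM or more, 28.6% were called, beside 8.66%. Among the 187 ZNF genes between 1 and 5 TPM, 11 were called higher (5.88%, beside 10.2% of all tested genes) and 0 lower, with a median log2 fold change of 0.27. These 2 shares are not matched in level, since the median level was 2.945 TPM in the 187 genes and 12.8 TPM in all tested genes.

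Members with and without a KRAB-type pattern were both shifted. Of the 127 with the pattern, 37 were called higher (29.1%), with a median log2 fold change of 0.46. Of the 130 without it, 30 were called higher (23.1%), with a median of 0.28. The share was 26.1% of all members and 10.2% of all tested genes. Beyond the genes already given, ZNF84 and ZNF587 had the largest changes of the KRAB-type class. ZNF84 had 43.21, 61.60 and 41.46 TPM in 3D, against 22.52, 25.35 and 20.75 TPM in 2D (limma, log2 fold change 1.04 with an SE of 0.18, adjusted p = 0.0143), and ZNF587 averaged 10.8 ± 3.96 TPM in 3D and 4.44 ± 0.681 TPM in 2D (SD, n = 3 each; limma, log2 fold change 1.07, adjusted p = 0.0322). The call of ZNF84 was lost without 3D replicate 1 alone (adjusted p up to 0.0591), that of ZNF587 in 7 settings (up to 0.114). ZNF587 is also less certain, with 15.3% shared windows and overlapping genes on both strands. Of the class without the pattern, ZNF121 had 19.77, 24.87 and 15.66 TPM in 3D, against 8.97, 9.72 and 8.58 TPM in 2D, with no overlap (limma, log2 fold change 1.04 with an SE of 0.18, adjusted p = 0.0149). Its call was lost without 3D replicate 1 or 2 and without 2D replicate 2 (adjusted p up to 0.0745).

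By number of finger matches, 0 of 6 members without a match and 6 of 38 (15.8%) with 1 to 4 were called higher. The counts were 25 of 81 (30.9%) with 5 to 9, 22 of 79 (27.8%) with 10 to 14 and 14 of 53 (26.4%) with 15 or more. Beside these stood 26.1% of all members and 10.2% of all tested genes, and 6 genes are too few to tell a share of 0 from either. The median log2 fold change was 0.33 without a match, where all 6 were positive, 0.21 with 1 to 4 fingers and 0.45, 0.43 and 0.37 in the higher classes, which makes no steady order. Members with 1 to 4 fingers also had the highest transcript GC content, at a median of 52.2% with 1 to 4 fingers and 41.8% with 15 or more, and the part of base composition in these medians was not tested. In the class of 15 or more fingers, ZNF473, which takes part in histone pre-mRNA processing, averaged 10.6 ± 2.44 TPM in 3D and 4.99 ± 0.67 TPM in 2D (SD, n = 3 each; limma, log2 fold change 0.94, adjusted p = 0.0266). In the class of 10 to 14 fingers, ZNF614 had 7.77, 8.27 and 7.80 TPM in 3D, against 3.72, 4.05 and 4.17 TPM in 2D, and ZNF461 had 7.66, 7.09 and 5.97 TPM in 3D, against 2.71, 3.51 and 3.84 TPM in 2D (limma, log2 fold changes 0.85 and 0.86, adjusted p = 0.0129 and 0.0237). In the class of 5 to 9 fingers, ZNF713 had 14.66, 14.32 and 13.07 TPM in 3D, against 6.64, 5.93 and 7.22 TPM in 2D (limma, log2 fold change 0.99, adjusted p = 0.00736). The groups were apart in all 4 genes. ZNF713 is less certain, with 21.6% of its windows in transcripts of another gene and an overlapping gene on the same strand. The call of ZNF713 was lost without 3D replicate 1 alone, that of ZNF614 in 3 settings, and those of ZNF473 and ZNF461 in 7 settings each (adjusted p up to 0.0558, 0.0684, 0.117 and 0.106).

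Base composition moved with the change in members and other genes alike. The transcripts of members had a median GC content of 43.4%, against 49.05% for the other protein-coding genes. Genes were split by GC content into 5 bins of equal size. In the bin with the lowest GC content (31.8% to 41.36%), 29 of 78 members (37.2%) and 17.6% of the other genes were called higher, with medians of 0.49 and 0.27. In the bin with the highest GC content (58.54% to 74.6%), 2 of 37 members (5.41%) and 4.97% of the other genes were called higher, with medians of 0.13 and -0.09. The median of the members lay above that of the other genes in all 5 bins. With log2 values corrected for transcript length and GC content, an alternative chosen after seeing the data, 31 members were called higher and 1 lower. The share called higher was 12.1% of members, beside 5.3% of the other genes. The median was 0.12 for the members and -0.08 for the other genes.

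**Figure D3:**
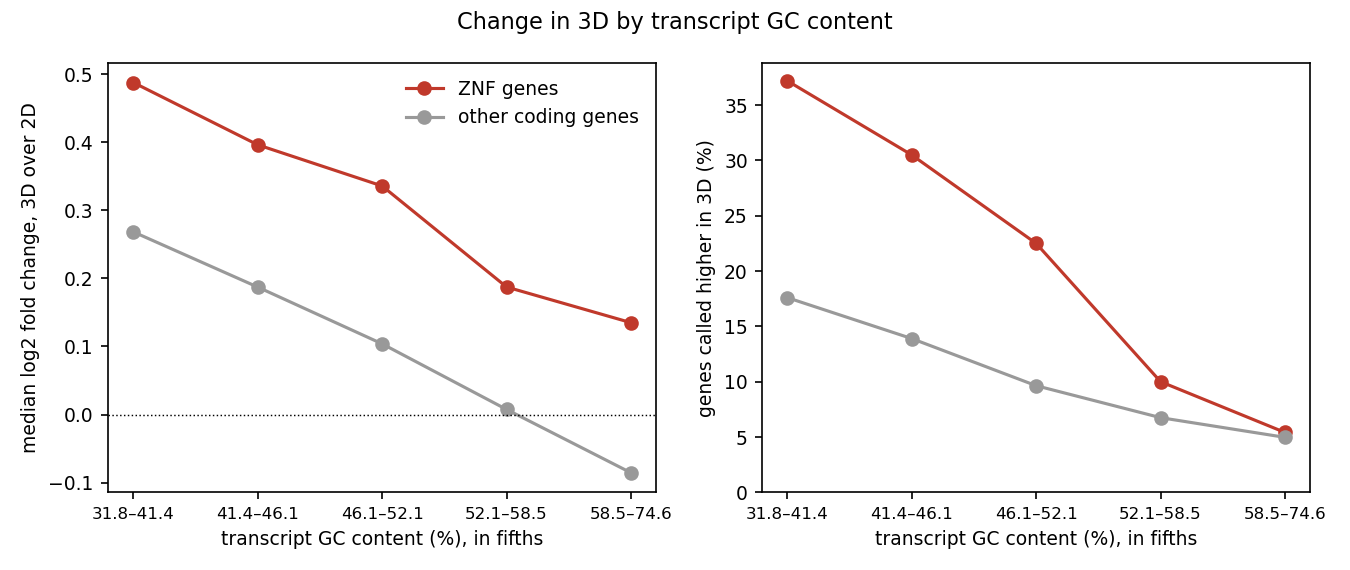
Median log2 fold change of 3D over 2D (left) and share of genes called higher in 3D (%, right) by bin of transcript GC content (%, horizontal axes, 5 bins of equal size), for expressed ZNF genes (red) and other nuclear protein-coding genes at a mean of 5 TPM or more (grey). Both sets fall from the lowest to the highest GC content, and the ZNF medians lie above the others in each bin (0.49 against 0.27 in the lowest, 0.13 against -0.09 in the highest).

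Of the 257 members, 115 (44.7%) lie on chromosome 19, where 5.79% of the other protein-coding genes lie. On chromosome 19, 32 were called higher (27.8%) with a median of 0.41, and on all other chromosomes 35 of 142 (24.6%) with a median of 0.30. Both shares were near the 26.1% of all members and above the 10.2% of all tested genes. Members no more than 1 Mb from the next were joined into groups of at least 5, which gave 11 groups with 129 members, 7 of them on chromosome 19. Which of these groups are named was decided after their values were seen. The group at chr19:7515292-9675086 (GRCh38, GENCODE 29) held 10 members, with a median of 0.74. Of these, 8 were called higher (80.0%, beside 26.1% of all members and 10.2% of all tested genes). These were ZNF558, ZNF317, ZNF559, ZNF266, ZNF426, ZNF121, ZNF561 and ZNF562, which follow each other among the members, whereas ZNF358 and ZNF414 at the other end of the group were not called. ZNF561 had 43.10, 38.17 and 36.89 TPM in 3D, against 23.76, 21.27 and 22.78 TPM in 2D (limma, log2 fold change 0.77 with an SE of 0.13, adjusted p = 0.0118), and ZNF426 had 11.32, 11.38 and 10.71 TPM in 3D, against 5.25, 5.92 and 6.71 TPM in 2D (limma, log2 fold change 0.81 with an SE of 0.14, adjusted p = 0.0157). The groups were apart in both. All 8 calls were lost without 3D replicate 1, and those of ZNF558, ZNF317, ZNF266 and ZNF562 also with median-ratio scaling. ZNF358 and ZNF414 have transcript GC contents of 69.1% and 62.6%, against 40.4% to 50.4% in the 8. With log2 values corrected for transcript length and GC content, the calls of ZNF558, ZNF317, ZNF266, ZNF426 and ZNF562 were lost. Those of ZNF559, ZNF121 and ZNF561 remained. That correction takes length and GC content together, and the part of base composition alone was not tested.

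At chr19:19785839-21852125, by contrast, 0 of 11 members were called, beside 26.1% of all members and 10.2% of all tested genes called higher. The median there was 0.28, with a positive fold change in 10. At the end of chromosome 12 (chr12:132918308-133214831), 3 of 5 were called, ZNF605, ZNF84 and ZNF140, with a group median of 0.85. ZNF605 had 13.31, 13.55 and 9.31 TPM in 3D, against 5.35, 6.01 and 4.64 TPM in 2D (limma, log2 fold change 1.03 with an SE of 0.19, adjusted p = 0.016), with no overlap. Its call was lost in 5 settings (adjusted p up to 0.0827). The largest group, at chr19:55576770-58481230, had 10 of 39 called (25.6%, near the 26.1% of all members), with a median of 0.46. The difference between groups was not tested.

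**Figure D4:**
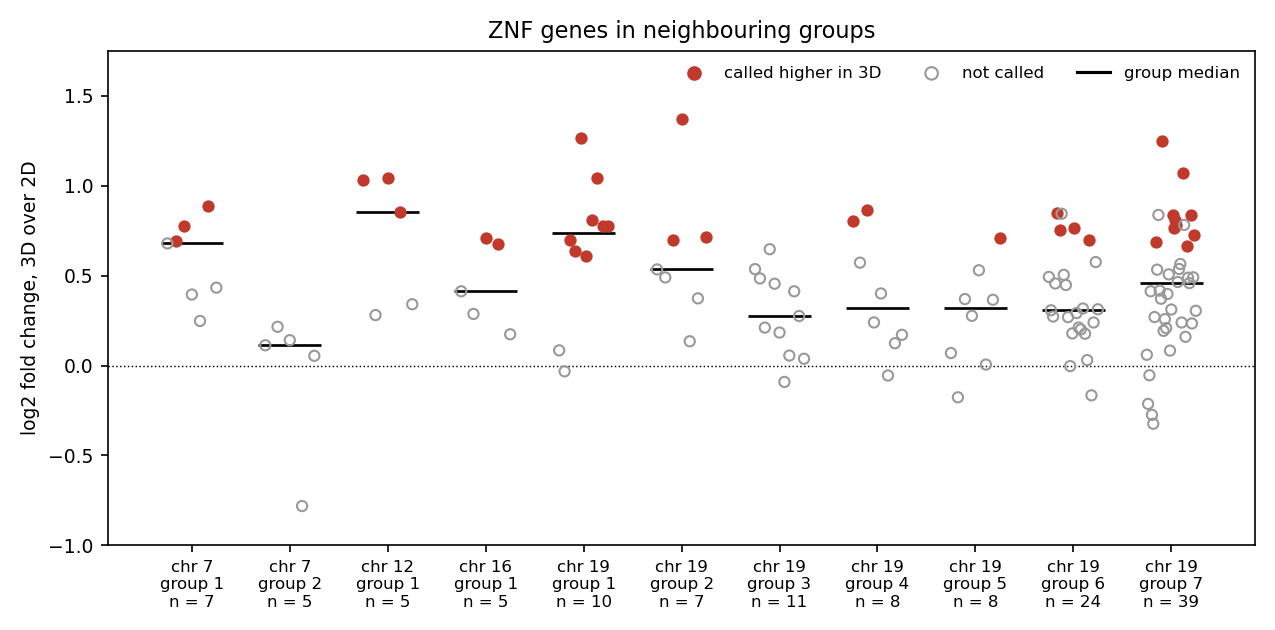
Log2 fold change of 3D over 2D (vertical axis, log2(TPM + 1) scale) for the 129 members in the 11 position groups, numbered along each chromosome; filled red points were called higher in 3D, open grey points were not called, and bars are group medians. The first group of chromosome 19 has 8 of 10 genes called, and group 3 of that chromosome has 0 of 11, beside 26.1% of all members.

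Promoters were looked at for 3 short motifs, on both strands, in the RefSeq windows of 300 bases (250 before and 50 after the start, build GRCh38.p14) that matched 222 members by symbol. The hypoxia core ACGTG was found in 37.7% of the 61 promoters of genes called higher in 3D, in 23.6% of 161 not called, in 28.1% of other protein-coding genes at 5 TPM and in 21.6% of all 27305 promoters. The cAMP response element TGACGTCA was found in 8.2% of the called, 3.73% of the not called, 3.39% of the other genes and 1.98% of all promoters. The AP-1 site TGANTCA was found in 3.28% of the called, 6.83% of the not called, 4.25% of the other genes and 7.76% of all promoters. The core ACGTG and the cAMP element share letters but neither contains the other. These shares are descriptions of letters and no binding was measured. The 250 bases before the start are printed 5′ to 3′ on the strand of the gene for 3 of the genes above, with matches in capitals. The RefSeq start of ZNF292 (window chr6:87155315-87155564, plus strand) is preceded by 4 marked places with the hypoxia core, that of ZNF121 (chr19:9584505-9584754, minus strand) by 1 cAMP element, and that of ZNF267 (chr16:31873557-31873806, plus strand), the largest increase that was called in every setting, by none of the 3 motifs.
ZNF292: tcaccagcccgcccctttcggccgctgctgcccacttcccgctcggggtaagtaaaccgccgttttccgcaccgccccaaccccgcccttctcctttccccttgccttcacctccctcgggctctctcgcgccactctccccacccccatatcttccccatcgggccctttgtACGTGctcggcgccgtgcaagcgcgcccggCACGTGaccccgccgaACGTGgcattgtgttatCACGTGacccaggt
ZNF121: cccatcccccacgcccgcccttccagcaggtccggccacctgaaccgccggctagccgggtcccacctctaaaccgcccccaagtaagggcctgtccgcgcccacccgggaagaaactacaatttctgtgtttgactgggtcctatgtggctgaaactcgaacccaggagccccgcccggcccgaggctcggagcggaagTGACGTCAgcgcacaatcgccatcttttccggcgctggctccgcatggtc
ZNF267: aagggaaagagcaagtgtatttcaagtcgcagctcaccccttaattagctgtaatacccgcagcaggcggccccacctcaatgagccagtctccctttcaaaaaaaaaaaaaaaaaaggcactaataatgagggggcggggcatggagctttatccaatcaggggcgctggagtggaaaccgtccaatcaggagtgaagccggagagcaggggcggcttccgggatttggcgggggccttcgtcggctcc

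Of 22 measured cofactors of KRAB proteins, 4 were called higher (18.2%, beside 10.2% of all tested genes) and 0 lower, with a median log2 fold change of 0.13, beside 0.12 for all tested genes. TRIM28, the corepressor that KRAB domains bind, had 328.19, 360.58 and 386.01 TPM in 3D, against 440.14, 372.34 and 501.98 TPM in 2D, and the groups overlapped (limma, log2 fold change -0.28, adjusted p = 0.242). The called genes were TRIM24, a relative of TRIM28 (15.3 ± 1.37 TPM in 3D and 9.16 ± 0.471 TPM in 2D), the chromatin remodeller SMARCAD1 (18.8 ± 0.725 TPM in 3D and 11.1 ± 0.666 TPM in 2D), the SETDB1 partner ATF7IP (37.8 ± 3.71 TPM in 3D and 22.9 ± 3.61 TPM in 2D) and the deacetylase HDAC2 (139.2 ± 2.86 TPM in 3D and 97.4 ± 8.81 TPM in 2D; SD, n = 3 each). Their log2 fold changes were 0.68, 0.71, 0.71 and 0.51 (limma adjusted p = 0.0204, 0.0151, 0.029 and 0.0348). The count was 0 with the correction for length and GC and 0 to 4 with 1 library left out. Of 49 expressed genes named ZBTB, ZSCAN, ZKSCAN, ZFP or PRDM, mostly of the same finger class, 13 were called higher (26.5%, beside 26.1% of the ZNF members and 10.2% of all tested genes) and 0 lower, with a median of 0.34. ZFP36 and ZFP36L1, among the 13, have CCCH fingers that bind RNA.

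The mitochondrial share of TPM was 12.3% to 19.4% in 3D and 14.4% to 17.5% in 2D, and leaving them out gave the same 67 calls. All 8 epithelial and lung adenocarcinoma markers, EPCAM, NKX2-1 and EGFR among them, were measured at 1 TPM or more, with sums of 5020 to 8810 TPM in 3D and 7600 to 10200 TPM in 2D. KRT7 had 524.93 to 869.42 TPM in 3D and 1165.0 to 1222.44 TPM in 2D. KRT18 had 812.61 to 1515.43 TPM in 3D and 1613.83 to 1976.71 TPM in 2D. Both were thus lower in every 3D library, and in the other markers of this list the groups overlapped. The leukocyte, endothelial and fibroblast lists were each at 10.9 TPM or less in every library. The fibroblast sum was 5.28 to 10.9 TPM in 3D and 2.02 to 2.51 TPM in 2D, nearly all of it COL1A1, with COL3A1 listed at 0 in every library, and its part in the ZNF values was not tested. Of the 257 members, 32 share over 10% of their 75-base windows with another gene (6 of the 67 called). The exons of 95 overlap a gene on the opposite strand (23 of the 67 called), and those of 75 overlap another gene on the same strand. The values of all these members are less certain. Overlaps on the opposite strand include ZNF217, ZNF292, ZNF146, ZNF473 and ZNF664, and overlaps on the same strand include ZNF605 and ZNF664.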

How the data were processed

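RNA of 6 HCC827 libraries, 3 in 3D and 3 in 2D, was measured. Per the labels' protocols, RNA with an integrity number above 9 was poly(A) selected, made into directional libraries and read single-end at 75 nt. The authors deposited TPM per gene and library, rounded to 2 decimals, with each column summing to 1000000 up to rounding error. The build hg38 and the tools RSEM 1.3.1, STAR 2.7.0d and cutadapt 2.3 are listed, per the submitters' processing notes, without roles; the release of the annotation and the strand setting are not given in the sources at hand. TPM keeps no depth, so depth per library is unknown and no counting interval is given.

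Groups were taken from sample titles. Genes whose mean reached 1 TPM were tested on log2(TPM + 1), pseudocount 1, with limma 3.58.1 (lmFit, eBayes with a trend; R 4.3.3), 3D against 2D, two-sided, no covariate, with Benjamini-Hochberg adjustment over 15042 genes and a threshold of 0.05. The fit was tested on simulated data. An exact test of 3 against 3 cannot give a p under 0.1. The members and lists were chosen with earlier results of these data known, so no p is given over a list. Named members were the 10 largest called increases and decreases, the 10 most abundant, called members of the role lists, up to 2 more per class, and the 3 on each side of the 5 TPM limit; other names were chosen after their values were seen. GENCODE 29 on GRCh38 gave positions and the sequence, length and GC content of transcripts (all 257 members and 14874 tested genes found). Overlaps came from bedtools 2.31.1 and figures from matplotlib 3.10.9 (Python 3.11.15). Alternatives were other pseudocounts (0.1 and 5), filters, scalings, gene sets and eBayes options, the replicate number as a block, each library left out, and log2 values corrected for length and GC.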

Additional observations from a re-analysis of the deposited data

How the results depend on the processing

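The counts depended on scaling, filtering and single libraries, as follows. With median-ratio scaling, no filter, quantile normalization and the length and GC correction (added after seeing the data), members called higher numbered 43, 32, 33 and 31, those with a KRAB-type pattern 24, 19, 18 and 17, those without it 19, 13, 15 and 14, those on chromosome 19 20, 14, 13 and 13, those on other chromosomes 23, 18, 20 and 18, and KRAB cofactors 2, 2, 2 and 0. The other name families had 8 called higher without the filter and 8 with the length and GC correction, under which the chromatin list had 2, and 1 member was called lower, without a KRAB-type pattern and not on chromosome 19. Without both libraries numbered 3, 4 members were called lower, all without a KRAB-type pattern, 1 on chromosome 19 and 3 elsewhere; 1 was in the ribosome list, 1 cofactor was called lower, and 1 gene of the activator list was called higher. The member median was 0.23, 0.17 and 0.12 with median-ratio scaling, quantile normalization and the length and GC correction, and 0.26 with a pseudocount of 5. With median-ratio scaling, no filter, quantile normalization and the length and GC correction, 16.7%, 12.5%, 12.8% and 12.1% of members were called higher. Beside these stood 6.14%, 4.59%, 6.06% and 5.3% of the other protein-coding genes.

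With 1 library left out, members called higher numbered 5 to 69 and lower 0 to 2; KRAB-type members 3 to 38 higher; members without the pattern 2 to 31 higher and 0 to 2 lower; chromosome 19 members 1 to 33 higher and 0 to 1 lower; members elsewhere 4 to 36 higher and 0 to 1 lower; cofactors 0 to 4, other families 3 to 13, the chromatin list 1 to 4, the ribosome list 0 to 2 and the activator list 0 to 1 higher. The share of members called higher was 1.95% to 26.8%, beside 2.14% to 10.9% of the other protein-coding genes. The member median was 0.31 to 0.39. The causes were not tested.

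Direction changed in genes that were not called. On the log2 scale ZNF706 was at 0.003604 with protein-coding nuclear genes only, 0.004134 without mitochondrial genes and 0.0434 without both libraries numbered 3, and with 1 library left out it ranged over -0.068 to 0.04505. ZNF638 was at -0.155 with the length and GC correction. With 1 library left out ZNF277 ranged over -0.510 to 0.0492 and ZNF358 over -0.190 to 0.309. ZNF358 was at -0.0659 with median-ratio scaling, -0.001452 with quantile normalization and -0.180 without both libraries numbered 3.

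Same-numbered libraries correlated at 0.10, 0.036 and 0.19 in their deviations from group means, and 3D replicates 1 and 2 both correlated best with 2D replicate 2, so the numbers are not shown to pair the libraries. With the replicate block, 60 members were called higher (23.3%, beside 9.97% of the other protein-coding genes) and 0 lower, and 58 of the 60 were among the 67. Depth, which TPM does not keep, limits what can be said of members near 5 TPM.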
